A study of Mus musculus with 4 samples.

Results

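The mitochondrial ribosomal proteins were taken as every probe of the array whose gene symbol starts with Mrpl (large subunit) or Mrps (small subunit). This gave 76 of the 26423 probes, for 67 genes: 43 of the large subunit with 50 probes and 24 of the small subunit with 26 probes. The 4 samples were cells of 3T3-L1, a clonal line of mouse preadipocytes that turns into fat-storing adipocytes after induction. All 4 received the induction mixture of 0.5 mM isobutylmethylxanthine (a phosphodiesterase inhibitor), 1 µM dexamethasone (a glucocorticoid) and 1 µg/ml insulin for 48 hours. The 2 control samples had the mixture alone, and the 2 berberine samples had 13.47 µM berberine, a plant alkaloid, together with it. The labels do not say whether samples of a group were separate cultures, so a p-value reflects how far these arrays scatter, and that scatter may be technical. One treatment text is shared by all 4 samples and mentions berberine, so the groups rest on the sample names and their treatment labels. In RNA of whole samples, fewer cells of a type and less RNA per cell cannot be told apart.

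The mitochondrial ribosome translates the few proteins that mitochondrial DNA encodes, which are core subunits of the respiratory chain and ATP synthase. Its own proteins are encoded in the nucleus, made in the cytosol and imported, while its ribosomal RNAs are made inside the organelle. The small subunit binds the messenger RNA and reads its codons, and the large subunit joins the amino acids and is attached to the inner membrane. Adipocyte differentiation is known to go with an increase in mitochondria.

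Most mitoribosomal genes were bright on these arrays, and with quantile normalization fewer of them were higher with berberine than lower. Levels are quantile-normalized intensities on a log2 scale, and a change is berberine minus control on that scale. A gene was called changed at an adjusted p under 0.05 (limma over all probes, Benjamini-Hochberg), with 1 probe per gene, the one with the highest mean. Of the 67 genes, 11 were called higher, against 30.0% of all 17734 genes on the array, and 18 were called lower, against 18.2% of all genes. Thus 16.4% of the members were higher and 26.9% lower, and 38 did not pass. Both berberine arrays lay above both control arrays in 23 members, against 49.2% of all genes, and below them in 31, against 28.3%. The median change was −0.09 over the members and 0.20 over all genes. The members' median control level was 13.95, against 9.16 for all genes. Among genes above log2 10 in the control samples, 14.0% of 57 members were higher against 32.4% of all 7511 such genes, and 28.1% were lower against 27.8%. With quantile normalization and among genes this bright, the share of members called lower was near the background, and the share called higher was below it. This contrast of shares was not tested, and its size depended on the scaling.

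The choice of scaling between arrays moved these counts, and the number called higher moved more than the number called lower. With the deposited values unscaled, 4 members (5.97%) were higher, against 11.2% of all genes, and 15 (22.4%) were lower, against 16.7%. With each array centred on its median, 29 (43.3%) were higher, against 44.3%, and 13 (19.4%) were lower, against 12.8%. With each array scaled on its 75th percentile, 19 (28.4%) were higher, against 25.1%, and 14 (20.9%) were lower, against 14.4%. The smaller share of rises among all members was therefore seen with quantile normalization and with deposited values, and not with the other scalings. Among genes above log2 10 in control, members higher were 7.02% against 18.1% with deposited values, 49.1% against 54.5% with median centring and 31.6% against 39.0% with the 75th percentile. Members lower were, in the same order, 22.8% against 23.7%, 19.3% against 19.8% and 21.1% against 21.8%. Among genes this bright, the larger share of falls was therefore not seen with these scalings.

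The members' median change differed from that of all genes with quantile normalization only. It was −0.02 against −0.02 with deposited values, 0.55 against 0.55 with median centring and 0.29 against 0.29 with the 75th percentile. These 3 scalings differ from each other by 1 constant for every gene, 0.57 or 0.31 above the deposited values, so they share the order of the changes by construction. Across all 4 scalings 13 members were called lower throughout and 4 were called higher throughout. How many of all genes were called throughout was not counted, so these counts have no background beside them. The same holds for the calls with arrays left out that are given further below.

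Of the 43 large subunit genes, 8 (18.6%) were higher, 10 (23.3%) were lower and 25 did not pass, with a median change of −0.07. Of the 24 small subunit genes, 3 (12.5%) were higher, 8 (33.3%) were lower and 13 did not pass, with a median change of −0.25. Of all genes, 30.0% were higher and 18.2% lower. Among genes above log2 10 in control, 21.6% of 37 large and 40% of 20 small subunit genes were lower, against 27.8% of such genes. Higher were 13.5% of these large and 15% of these small subunit genes, against 32.4%. The small subunit's median lay 0.18 below the large subunit's with quantile normalization, and 0.45 below it with deposited values, a difference that median centring and 75th-percentile scaling leave as it is by construction. The 13 genes called lower under all 4 scalings were 6 of the large and 7 of the small subunit. With quantile normalization, falls of at least 2-fold were called in 7 large and 7 small subunit genes, against 11.5% of all genes. Among genes above log2 10 in control, such falls were called in 13 of 57 members (22.8%) and in 19.8% of all such genes. These shares were 21.1% and 21.3% with deposited values, 10.5% and 15.3% with median centring, and 15.8% and 17.7% with the 75th percentile. The share among bright members was thus near or below that of all such genes under each scaling. Only Mrpl19 of the members was called with a rise of at least 2-fold under quantile normalization, against 12.9% of all genes. Deposited values instead gave called rises of this size for Mrpl13, Mrps30 and the probe standing for Mrps10, and Mrpl19 did not pass. Median centring and the 75th percentile gave them for further members, including Mrpl33, Mrpl52 and Mrps27. The share of all genes with such rises was not counted under these scalings. No test of the difference between the subunits was made, since genes of a subunit are not replicates.

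The members were also grouped by evolutionary origin, into counterparts of bacterial ribosomal proteins and proteins added in mitochondria. Of all genes on the array, 30.0% were higher and 18.2% lower. Of 25 large subunit bacterial counterparts, 5 (20%) were higher and 6 (24%) lower, with a median change of 0.01. Of 18 large subunit additions, 3 (16.7%) were higher and 4 (22.2%) lower, with a median of −0.08. In the small subunit, 1 of 13 bacterial counterparts (7.69%) was higher and 5 (38.5%) were lower (median −0.11). Of 8 small subunit additions, 1 (12.5%) was higher and 1 (12.5%) lower (median −0.25). The classes are small, and differences between them were not tested. The bacterial counterpart of the small subunit called higher was Mrps10, whose probes disagree. These classes go by place in structures, which puts Mrps30 in the large subunit, and Mrpl55, Mrps18a and Mrps18b were assigned to neither kind.

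**Figure D1:**
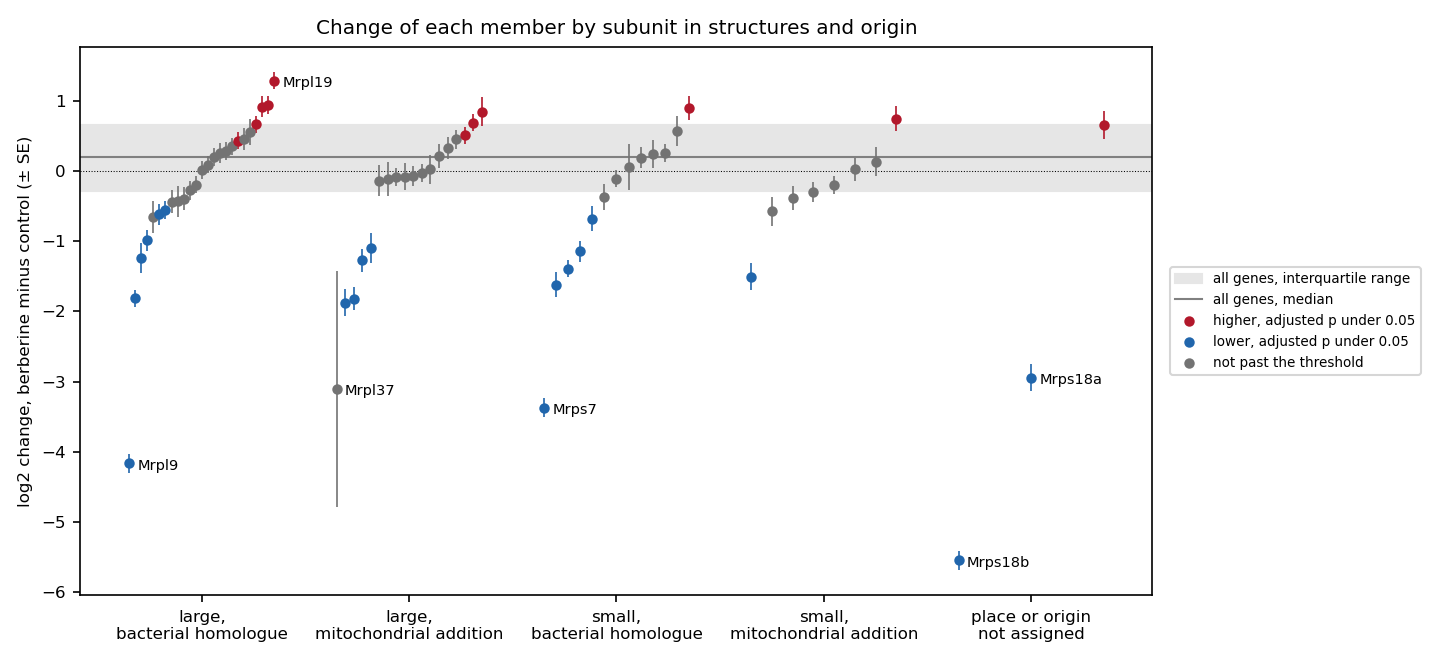
Change of each mitoribosomal gene, berberine minus control on the log2 scale, with 1 point per gene, bars of ± SE and colours for the call. Genes are grouped by place in structures and origin; the grey line and band give the median and interquartile range of all genes. The assigned classes run from −4.16 for Mrpl9 to 1.29 for Mrpl19, the 1 rise among small subunit bacterial counterparts is a probe of Mrps10 whose other probes fell, and Mrps18b at −5.55 lies among the unassigned.

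Promoter sequences of RefSeq (assembly GRCm38.p6, 250 bases before to 50 after each gene's start) were available for 58 of the 67 members, in 64 windows. Nuclear genes for mitochondrial proteins are known for binding sites of the ETS factor GABPA, of NRF1 and of YY1 near their starts. The ETS core CCGGAAG, searched on both strands, was in 32.8% of the members' windows, 12.6% of the windows of genes on the array and 8.86% of all windows. The YY1 core AAGATGGC was in 17.2% of the members' windows, 3.35% of the array genes' windows and 2.75% of all. The NRF1 palindrome, spelled in capitals in the lines of Mrpl9 and Mrpl39, was in 3.12%, 1.5% and 0.971%, and the SP1 box GGGCGG in 50.0%, 51.5% and 35.7%. A match is a description of the letters and not a shown binding site. The ETS core was in windows of 7 of 18 members called lower, 4 of 8 called higher and 10 of 32 that did not pass. The following 30-base stretches, read along the gene, show the same core in genes of all 3 kinds, with the match in capitals: Mrps18a, Mrpl53 and Mrpl43 fell, Mrpl3 and Mrps22 did not pass, and Mrpl52 and Mrps27 rose.
Mrps18a, chr17:46110967-46110996, plus strand: acacccctgctCCGGAAGcggaagtgcaca
Mrpl53, chr6:83109038-83109067, plus strand: ccgcggagccgCCGGAAGcggtccgttcca
Mrpl43, chr19:45006436-45006465, minus strand: caaccccggaaCCGGAAGtcaccggttagt
Mrpl3, chr9:105053238-105053267, plus strand: tgagaaacggaCCGGAAGtggcccggctgt
Mrps22, chr9:98601672-98601701, minus strand: aacctctcgagCCGGAAGttgctctatcga
Mrpl52, chr14:54426851-54426880, plus strand: caagatgtcggCTTCCGGttttcccggcag
Mrps27, chr13:99344727-99344756, plus strand: tggtaggaccaCTTCCGGcggaggcgggct

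Of 25 ETS matches, 23 lay within 100 bases of the start. Of 11 YY1 matches, 8 lay after the start, between positions 12 and 37. The YY1 core was in windows of 6 of 18 members called lower, 1 of 8 called higher and 4 of 32 that did not pass. The NRF1 palindrome was found in only 2 members, Mrpl9, which fell, and Mrpl39, which did not pass. The stretches below show the YY1 core in Mrps7 and Mrps18a, which fell, Mrpl42, which did not pass, and Mrps27, which rose. Both NRF1 matches follow, again with the match in capitals.
Mrps7, YY1, chr11:115604147-115604176, plus strand: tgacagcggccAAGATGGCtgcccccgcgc
Mrps18a, YY1, chr17:46111004-46111033, plus strand: aggtgcgttccAAGATGGCggccctcaggg
Mrpl42, YY1, chr10:95501904-95501933, minus strand: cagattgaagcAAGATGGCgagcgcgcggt
Mrps27, YY1, chr13:99344789-99344818, plus strand: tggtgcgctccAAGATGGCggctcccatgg
Mrpl9, NRF1, chr3:94443298-94443327, plus strand: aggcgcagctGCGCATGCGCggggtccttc
Mrpl39, NRF1, chr16:84735350-84735379, minus strand: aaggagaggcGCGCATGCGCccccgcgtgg

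Among the members, the largest fall was that of Mrps18b, 1 of 3 mammalian relatives of a bacterial small subunit protein. Its level was 12.53 and 12.31 in the control samples and 6.87 and 6.88 in the berberine samples. Both berberine samples were far below both controls, by 46.7-fold (change −5.55, SE 0.14, adjusted p = 7.13e-05, limma). Mrps7, which lies in the head of the small subunit, was at 15.39 and 15.59 in control and 12.14 and 12.10 with berberine. Its groups were also apart, by 10.4-fold (change −3.37, SE 0.13, adjusted p = 0.000148, limma). The large subunit gene Mrpl9, whose NRF1 match is printed above, was at 12.94 and 12.77 in control and at 8.69 in both berberine samples. Its groups did not overlap, and the fall was 17.9-fold (change −4.16, SE 0.13, adjusted p = 9.8e-05, limma). These 3 genes, 4.48% of the members, were the ones that fell by at least 8-fold, against 2.86% of all genes and 5.99% of genes above log2 10 in control.

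Mrps18a carries a small subunit name but sits in the large subunit in structures of the mammalian mitoribosome. It was at 14.64 and 14.18 in control and 11.47 in both berberine samples. The groups were apart by 7.68-fold (change −2.94, SE 0.19, adjusted p = 0.000498, limma), and its window holds both an ETS and a YY1 core, as printed above. The other relative of the same bacterial protein, Mrps18c, was not analysed here. Mrps30, a second protein that structures place in the large subunit, rose. Counted by place in structures, 9 of 45 large subunit genes (20%) were higher and 11 (24.4%) lower. Of 22 small subunit genes, 2 (9.09%) were higher and 7 (31.8%) lower. These shares stand against 30.0% higher and 18.2% lower of all genes.

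Further small subunit genes that fell were Mrps6, Mrps11, Mrps31, Mrps9 and Mrps12. Mrps6, the brightest member in control, was at 17.01 and 17.12 there and 15.64 and 15.25 with berberine. All 4 arrays were bright, and the berberine samples were lower by 3.07-fold (change −1.62, SE 0.18, adjusted p = 0.00228, limma). Mrps11, a protein of the small subunit's platform, was at 12.96 and 12.93 in control and 11.56 and 11.54 with berberine. The groups were apart by 2.62-fold (change −1.39, SE 0.12, adjusted p = 0.00107, limma), with little spread in either. Mrps31, a mitochondrial addition, was at 13.36 and 13.83 in control and 12.05 and 12.13 with berberine, a 2.84-fold fall without overlap (SE 0.20, adjusted p = 0.00379, limma). Mrps9 changed by −1.14. Mrps12, the counterpart of a bacterial protein that governs decoding accuracy, changed by −0.68 (adjusted p = 0.0322, limma), but its change was 0.08 when arrays were centred on their medians.

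**Figure D2:**
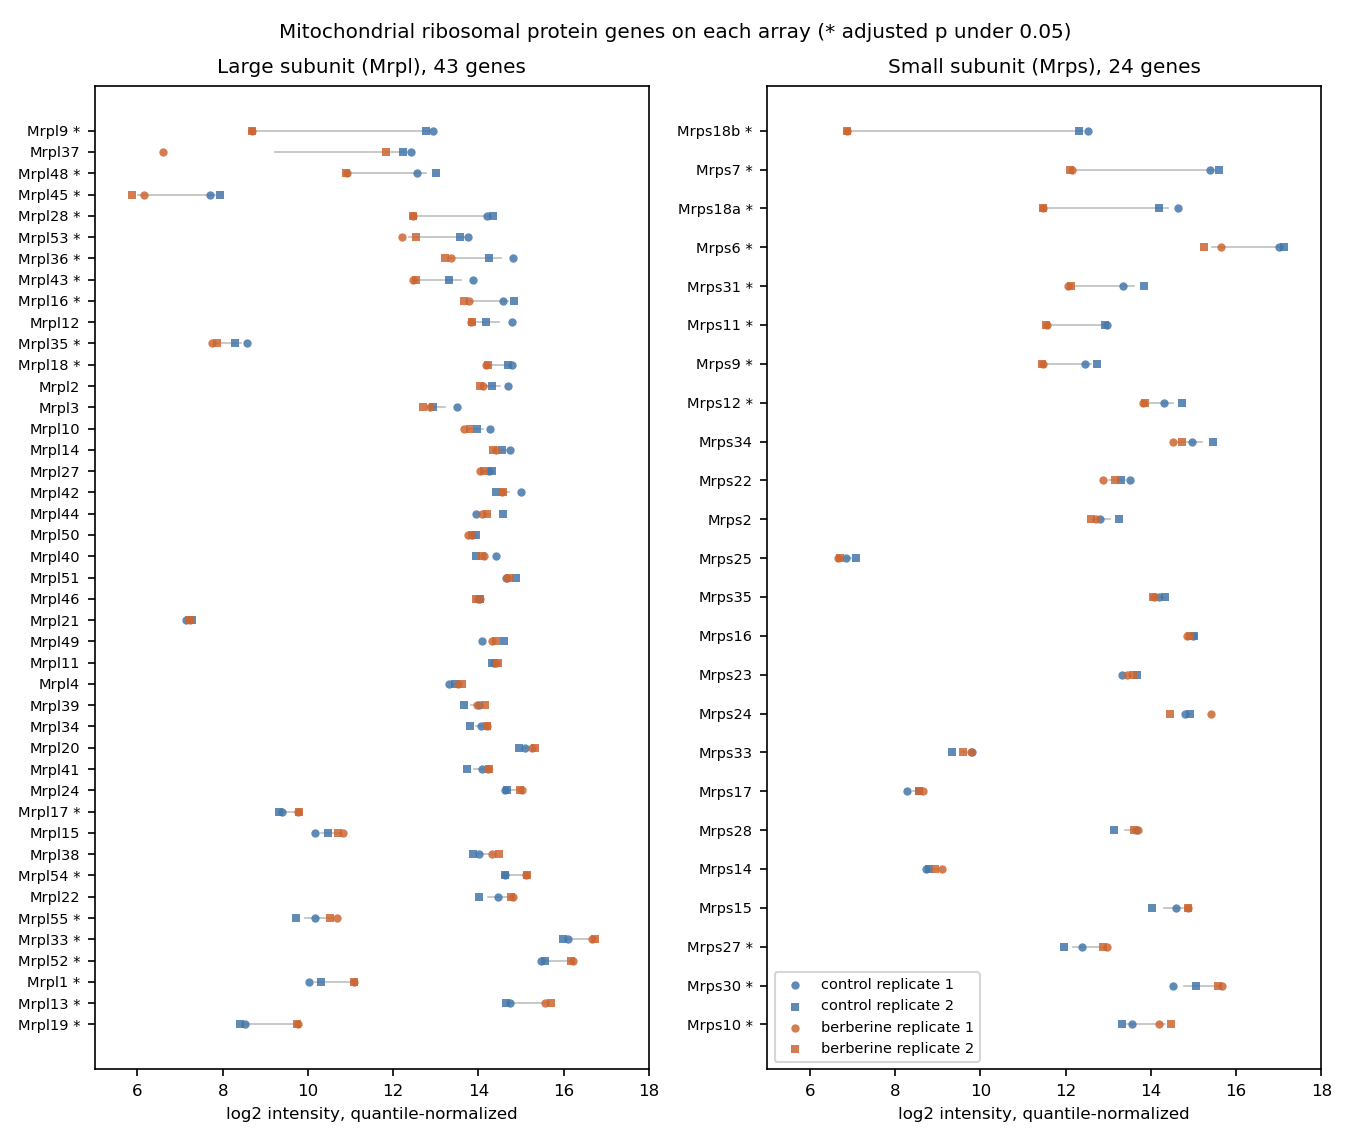
Level of each mitoribosomal gene in each of the 4 arrays, as log2 quantile-normalized intensity, by subunit name and ordered by change. Lines join the group means and asterisks mark an adjusted p under 0.05. Mrps18b, Mrpl9 and Mrps7 have both berberine arrays far below both controls, and Mrpl37 is low in 1 berberine array only.

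In the large subunit, Mrpl28 fell from 14.21 and 14.33 in control to 12.46 and 12.45 with berberine. The groups were apart by 3.52-fold (change −1.82, SE 0.12, adjusted p = 0.000592, limma). Mrpl45, a membrane-facing protein near the exit tunnel, was dim, at 7.71 and 7.94 in control and 6.15 and 5.87 with berberine. The berberine level lay under the floor of log2 6.58, the 25th percentile of all values, so the fall was at least 2.37-fold (adjusted p = 0.00128, limma). Mrpl48, a protein of the central protuberance, had 2 probes that both fell. The brighter was at 12.55 and 13.01 in control and 10.91 and 10.90 with berberine, 3.66-fold lower (adjusted p = 0.00173, limma). The other probe was at 11.72 and 12.14 in control and 6.86 and 7.05 with berberine, 31.4-fold lower (adjusted p = 0.000138, limma). Both probes agreed in direction and differed in size. The berberine levels of the second probe lay near the floor, so its fold is uncertain. The other large subunit genes that fell were Mrpl53 (−1.27), Mrpl36 (−1.24), Mrpl43 (−1.10), Mrpl16 (−0.99), Mrpl35 (−0.61) and Mrpl18 (−0.56). The change of Mrpl18 was 0.21 with median centring.

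With quantile normalization the largest rise among the members (1.29) was smaller than the largest fall (−5.55). The same lean was seen over all genes, of which 508 were called at least 8-fold lower and 23 at least 8-fold higher. Mrpl19, a bacterial counterpart in the large subunit, was at 8.51 and 8.41 in control and 9.76 and 9.74 with berberine. The groups were apart by 2.44-fold (change 1.29, SE 0.12, adjusted p = 0.00151, limma), although with deposited values the adjusted p was 0.096. Mrpl13 was at 14.73 and 14.65 in control and 15.56 and 15.70 with berberine. It rose by 1.92-fold without overlap (change 0.94, SE 0.13, adjusted p = 0.00446, limma). Mrpl1, the protein of the mobile stalk at the tRNA exit side, was at 10.02 and 10.32 in control and 11.09 and 11.08 with berberine. It rose by 1.88-fold (change 0.91, SE 0.15, adjusted p = 0.00784, limma), and its dimmer probe by 0.58 (adjusted p = 0.0243, limma).

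In the small subunit by name, Mrps30 was at 14.52 and 15.05 in control and 15.67 and 15.58 with berberine. It rose by 1.80-fold without overlap (change 0.85, SE 0.21, adjusted p = 0.0275, limma). Mrps27, a protein with pentatricopeptide repeats, was at 12.39 and 11.96 in control and 12.96 and 12.88 with berberine. It rose by 1.68-fold (change 0.75, SE 0.18, adjusted p = 0.0267, limma), and its window holds both an ETS and a YY1 core. Mrpl52 (0.68), Mrpl33 (0.66), Mrpl55 (0.66), Mrpl54 (0.51) and Mrpl17 (0.43) were the other large subunit genes called higher. The change of Mrpl17 was −0.18 with deposited values.

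Of the members called lower, 8 were called under all 4 scalings and with each array left out in turn: Mrpl9, Mrpl28, Mrpl45, Mrps6, Mrps7, Mrps11, Mrps18a and Mrps18b. No member called higher met both conditions. The rises of Mrpl13, Mrpl52 and Mrps30 were called under all 4 scalings, as was that of the probe standing for Mrps10, whose other probes fell, and the rise of Mrpl19 with each array left out. With a berberine array left out, 1 member was called higher and 8 or 10 lower, and the shares over all genes dropped as well, to 6.51% or 5.51% higher and 8.60% or 8.07% lower.

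**Figure D3:**
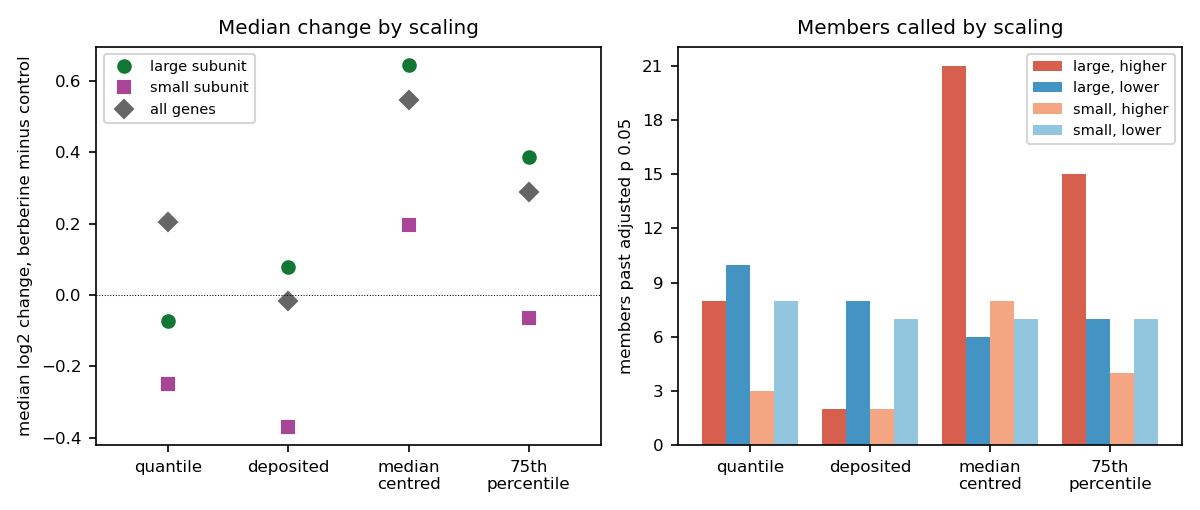
Left, median log2 change of large subunit genes, small subunit genes and all genes under the 4 scalings; right, the number of members of each subunit called higher or lower. The small subunit median is below the large subunit's by 0.18 with quantile normalization and by the same 0.45 in the other 3, which only shift all genes alike, and large subunit genes called higher run from 2 to 21.

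Several genes of known roles did not pass the test. Mrpl12, the stalk protein that recruits translation factors, was at 14.80 and 14.18 in control and 13.82 and 13.84 with berberine (change −0.66, adjusted p = 0.0706, limma). Its partners at the stalk base, Mrpl10 and Mrpl11, changed by −0.39 and 0.09. Mrpl3, near the peptidyl transferase centre, changed by −0.43, Mrpl44, an RNase III-like protein, by −0.12, Mrps2 by −0.38, Mrps16 by −0.11 and Mrps22 by −0.38. With median centring the changes of all of these but Mrpl11 turned from below 0 to above it, and that of Mrpl11 stayed above. The 25 large subunit genes that did not pass ran from −3.10 to 0.55, and the 13 small subunit genes from −0.58 to 0.56. At 2 arrays a group, a miss of the threshold does not show that these levels were equal.

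Mrpl37, a mitochondrial addition to the large subunit, was the member whose berberine arrays disagreed most. It was at 12.42 and 12.23 in control, and at 6.60 and 11.84 with berberine. Berberine replicate 1 alone was low, and the change of −3.10 (SE 1.68) did not pass (adjusted p = 0.195, limma). Without berberine replicate 1 the change was −0.47 (adjusted p = 0.182, limma), and without replicate 2 it was −5.72 (adjusted p = 0.0223, limma). No other member had berberine arrays over 1 apart, and 29 of the 7511 genes above log2 10 in control did. Those of Mrps24 lay 0.94 apart, at 15.40 and 14.46, on either side of its controls at 14.80 and 14.93. The 2 arrays of a group lay 0.23 apart in control and 0.079 apart with berberine, as medians over the members. Mrpl37 was chosen for mention after its values were seen.

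Of the members, 8 genes had more than 1 probe, with 17 probes in all, and the probes of a gene did not always agree. Mrps10, a bacterial counterpart in the small subunit, had 3. The probe that stands for it here was at 13.56 and 13.32 in control and 14.20 and 14.48 with berberine (change 0.90, SE 0.17, adjusted p = 0.0113, limma). The second was as bright in control, at 13.58 and 13.37, and was at 9.26 and 9.24 with berberine, 18.7-fold lower (adjusted p = 0.000102, limma). The dimmest was at 8.18 and 7.89 in control and fell by at least 2.74-fold (adjusted p = 0.00151, limma). Thus 1 probe rose and 2 fell, and a rise or fall of the gene as a whole cannot be given.

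Mrpl51 had a bright probe at 14.65 and 14.88 in control and 14.66 and 14.72 with berberine (change −0.07), and a second that fell by 1.49 on the log2 scale (adjusted p = 0.00117, limma). Mrpl11 likewise had 1 probe that did not pass and a dim one called lower (change −0.49, adjusted p = 0.0486, limma), and Mrpl17 had 1 probe called higher and 1 that did not pass. Both probes of Mrpl1 rose, both of Mrpl48 fell, and those of Mrpl41 and Mrpl49 did not pass. Over all 76 probes, 12 were higher, against 27.1% of all probes, and 23 were lower, against 17.7%. Which transcripts each probe detects was not analysed here.

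**Figure D4:**
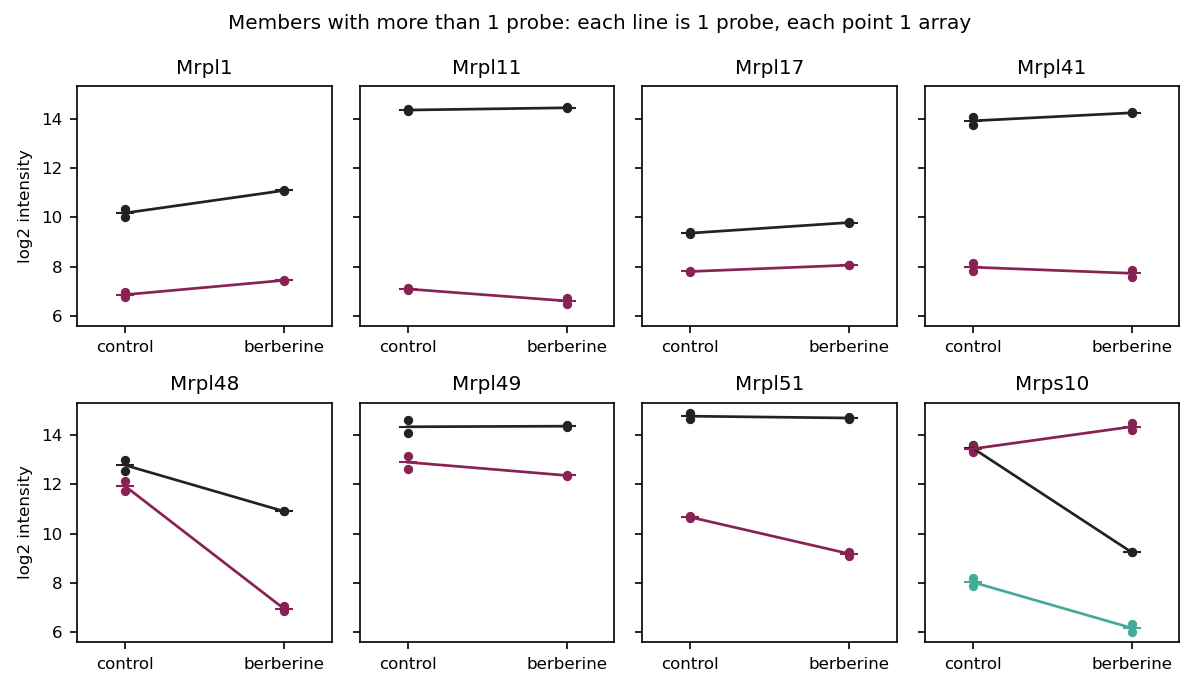
Level of every probe of the 8 mitoribosomal genes with more than 1 probe, in control and berberine arrays, as log2 quantile-normalized intensity, with a point per array and a line per probe joining the group means. The probes of Mrps10 part, with 1 rising by 0.90 and another changing by −4.23, while those of Mrpl1 both rise and those of Mrpl48 both fall.

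Gene starts on the opposite strand within 1000 bases upstream were found for 19 of the 58 members with a window (32.8%), and for 2105 of 13973 genes of the array (15.1%). In 15 pairs the neighbour was measured. Both genes were called in 3 pairs, 1 the same way and 2 in opposite ways, 1 gene was called in 8 pairs, and neither in 4. Mrpl43 fell with Twnk, the mitochondrial DNA helicase gene (change −4.88, adjusted p = 0.00037, limma). With berberine Twnk was at 6.89, near the floor, so the size of its change is uncertain. Mrps7 fell while its neighbour Gga3 rose by 0.66, and Mrpl18 fell while Tcp1, a cytosolic chaperonin subunit gene, rose by 1.43. The closest pair within the family was Mrpl46 and Mrps11, whose starts lie 42 bases apart. Mrps11 fell, and Mrpl46, 1 of the large subunit, was at 13.99 and 14.04 in control and 14.03 and 13.95 with berberine (change −0.03, adjusted p = 0.863, limma). The 41 bases between their starts are given along the strand of Mrps11, with an SP1 box in capitals. These pairs were named after their values were seen.
Mrpl46 to Mrps11, chr7:78783090-78783130: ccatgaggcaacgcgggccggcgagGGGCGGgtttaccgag

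Of 13 measured translation factors, 6 (46.2%) were higher and 4 (30.8%) lower, against 30.0% and 18.2% of all genes (median change 0.41). The elongation factor gene Gfm1 was at 12.42 and 13.07 in control and 9.17 and 9.40 with berberine, 11.01-fold lower without overlap (SE 0.25, adjusted p = 0.000698, limma). Its relative Gfm2, which acts in ribosome recycling, rose by 1.20 at both probes (adjusted p = 0.0042 and 0.00952, limma), as did the recycling factor gene Mrrf by 0.74. The back-translocase gene Guf1 rose by 1.07, and the initiation factor gene Mtif2 fell by 0.77. With deposited values the changes of Mrrf (0.12) and Guf1 (0.46) did not pass (adjusted p = 0.776 and 0.262, limma). The shares of this and the following lists were not counted under other scalings. The elongation factor genes Tufm (0.41) and Tsfm (−0.17) did not pass. The membrane insertase gene Oxa1l had a bright probe called lower (−0.59) and a dimmer one called higher (0.67).

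Of 29 measured genes for ribosome assembly and rRNA modification, 9 (31%) were higher and 6 (20.7%) lower (median 0.11). These shares were near the 30.0% and 18.2% of all genes. The GTPase gene Mtg1 fell by 1.92 (adjusted p = 0.000577, limma) and the chaperone gene Eral1 by 0.71, whereas the GTPase gene Noa1 rose by 0.93. Noa1 did not pass with deposited values (0.92, adjusted p = 0.0634, limma), nor Eral1 with median centring (−0.52, adjusted p = 0.121, limma). Ddx1, an RNA helicase better known from the tRNA ligase complex, fell by 2.53. Lrpprc (−0.07) and Tfb1m (−0.24) did not pass. Of 4 mitoribosomal proteins that carry other names, Ptcd3, a pentatricopeptide repeat protein of the small subunit, was at 13.31 and 13.43 in control and 10.74 and 10.87 with berberine. It fell by 2.57 without overlap (adjusted p = 0.000271, limma). Dap3, a small subunit GTPase, rose by 0.51, while Chchd1 (−0.41) and Gadd45gip1 (0.71) did not pass. With deposited values Dap3 did not pass either (0.11, adjusted p = 0.798, limma). Of 17 mitochondrial aminoacyl-tRNA synthetases, 5 (29.4%) were higher and 4 (23.5%) lower, also against 30.0% and 18.2% of all genes. These counts rest on 1 probe per gene, and probes of some of these genes disagreed. The probe standing for Tars2 rose by 0.81, while another fell by at least 8.49-fold. The probe standing for Fars2 did not pass, while its other probes fell by at least 8.96-fold and 7.58-fold. Those called lower included Cars2 (8.53-fold) and Pars2 (4.70-fold). Among the 63 genes of these lists and the translation factors, 16 called with quantile normalization did not pass with deposited values. With deposited values 1 gene passed that had not passed with quantile normalization. The proteins that mitochondrial DNA encodes were not analysed here.

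**Figure D5:**
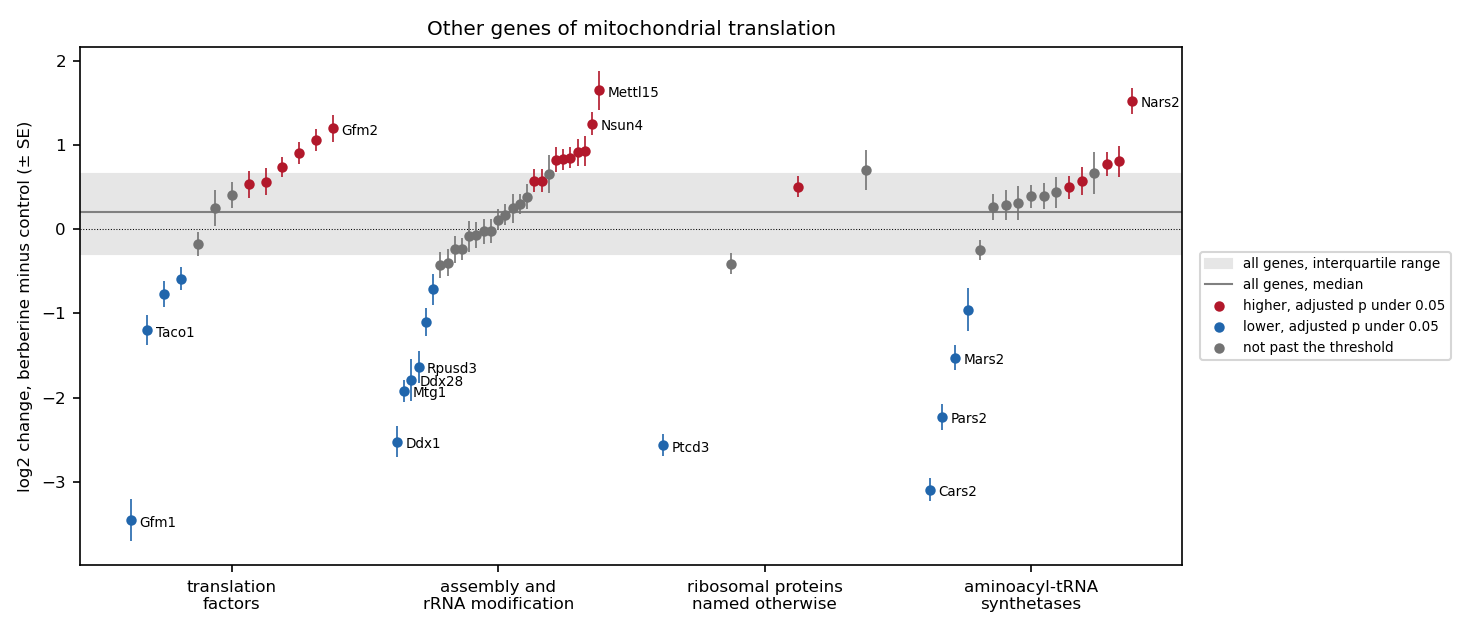
Change of each measured gene of the other mitochondrial translation lists, berberine minus control on the log2 scale, with bars of ± SE and colours for the call; the grey line and band give the median and interquartile range of all genes. Each of the 4 lists holds genes called in both directions, with Gfm1 at −3.46 and Cars2 at −3.09 the lowest.

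Markers of mature adipocytes moved with the groups. Of 8 mature adipocyte markers, 6 were lower, 1 (Lipe) was higher and 1 did not pass, with a median change of −5.88. Their summed intensity was 602876 and 579328 in the control samples and 31672 and 33727 with berberine. Of 6 measured preadipocyte and fibroblast markers, 3 were higher and 3 lower, and their sum was 105920 and 100446 in control and 60716 and 57510 with berberine. Sums for macrophage, endothelial, skeletal muscle and epithelial markers lay between 219 and 1236 in every sample, and no marker was listed at 0. The part of these markers in the mitoribosomal changes was not tested.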

How the data were processed

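RNA of 4 samples was hybridised to 1-colour arrays labelled with Cy5. The deposited table holds 1 linear intensity per probe and sample; how the authors scanned, background-corrected or scaled the arrays is not given in the sources used here. Array medians were 423 and 350 in control and 237 and 280 with berberine. Of 26423 probes, 15 at or below 0 on any array were left out. Intensities were log2-transformed, quantile-normalized and tested with limma 3.58.1 in R 4.3.3 (lmFit, eBayes, 2 residual degrees of freedom), with Benjamini-Hochberg adjustment over 26408 probes; the script was tested on simulated data. An exact permutation test of 2 against 2 cannot go below p = 0.333. The number of arrays limits the precision.

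Of the probes, 20377 had 1 gene symbol, 0 several and 6046 none in the platform annotation, and all 76 member probes matched a current RefSeq symbol apart from case. A gene was read from the probe whose mean over the 4 arrays was highest. Text names the 10 largest falls and 6 largest rises among called genes with separate groups, genes with several probes and a fixed set of known roles; others were chosen after their values were seen. Members, lists and the 25th-percentile floor were chosen with earlier results of these data known. Same-numbered arrays did not deviate together (r = 0.0035), so numbers were not treated as pairs.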

Additional observations from a re-analysis of the deposited data

How the results depend on the processing

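Besides the place in structures, 12 other settings listed at the start and 1 chosen after seeing the data, which lets the probe with the highest control mean stand for a gene, were run on 67 member genes and 63 genes of the other lists. Counts called higher moved most with scaling: deposited values gave 4 members (2 large subunit), median centring 29 (21 large, 8 small) and the 75th percentile 19 (15 large). Large subunit genes called lower were 6 with median centring. With 1 array left out, members called higher ran from 1 to 14 (large 1 to 10, small 0 to 4) and called lower from 8 to 20 (large 3 to 13, small 5 to 10). The large subunit's median change was 0.0794, 0.64 and 0.39 with deposited values, median centring and the 75th percentile, and −0.0573 to 0.0370 with 1 array left out; the small subunit's was −0.37, 0.20 and −0.0638, −0.28 to −0.15 with 1 array left out, and −0.34 with probes averaged or with the added rule. The sign of a change turned for 28 genes with median centring, 18 with deposited values, 24 with the 75th percentile and 8 with probes averaged, of which 18, 17, 24 and 3 were called in neither fit. Among genes called in at least 1 of the 2 fits, it turned with median centring for Mrpl18 (0.21), Mrpl27 (0.57), Mrpl46 (0.72), Mrpl50 (0.65), Mrpl51 (0.70), Mrps12 (0.0788), Mrps16 (0.67), Mrps35 (0.55), Lrpprc (0.62) and Oxa1l (0.15), and with deposited values for Mrpl17 (−0.18). Averaging the probes of a gene turned, among such genes, Mrps10 (−1.73), Fars2 (−2.27), Ngrn (−0.0554), Oxa1l (0.0425) and Tars2 (−1.04), and the added rule turned Mrps10 (−4.23). The cause was not tested. With the replicate number as a block, 12 members were higher (8 large, 4 small) and 21 lower (12 large, 9 small). Medians were unchanged at −0.07 and −0.25, Mrpl12, Mrpl22, Mrpl37, Mrps15 and Mrps34 passed and Mrpl17 did not. Mrpl37 passed in this fit although its berberine arrays were at 6.60 and 11.84, so its pass does not show that its arrays agree. The arrays share only a number (r = 0.0035). With 2 arrays a group and signals near the floor of log2 6.58, small changes of dim probes can be missed. Some such changes passed, as for the dim probes of Mrpl1 and Mrpl11.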

Other observations

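Mitoribosomal genes that the array annotation lists under older symbols fell outside the name rule. Mrpl57 had 2 probes with changes of 0.41 (adjusted p = 0.0562, limma) and 0.42 (adjusted p = 0.0436, limma). Mrpl58, the gene of a peptidyl-tRNA hydrolase built into the large subunit, changed by 0.53 (adjusted p = 0.0466, limma).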
